A study of Arabidopsis thaliana with 27 samples.

Results

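LBD16, LBD29, PUCHI and BBM are transcription factor genes that act where Arabidopsis roots branch and where callus forms. All 4 had their highest transcript signal in callus at the moment of transfer to shoot-inducing medium and were lower 3 and 6 days later in the wild type and in both mutants. They were taken as the probe sets that the array annotation assigns to these 4 symbols. Each symbol has 1 probe set, so that 4 of 22810 probe sets, or 4 of the 13286 genes tested, are described here. LBD16 is the locus AT2G42430 (probe set 265856_at), LBD29 is AT3G58190 (251565_at), PUCHI is AT5G18560 (249992_at) and BBM is AT5G17430 (246426_at).

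Callus that forms on auxin-rich medium follows the programme of a lateral root primordium, whichever organ it is taken from. Auxin degrades Aux/IAA repressors and frees auxin response factors, which switch on LBD genes of the lateral organ boundaries family in founder cells. High LBD16 or LBD29 activity is enough to start callus without added hormone. PUCHI is an AP2/ERF factor that shapes cell divisions in the young primordium, and BBM (BABY BOOM) is an AP2 factor of the PLETHORA group that acts in root meristems and can start somatic embryos. Shoot-inducing medium, rich in cytokinin, turns such callus towards shoot meristems.

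The 27 Affymetrix arrays, 1 per RNA sample, cover 9 groups of 3. Callus came from hypocotyls of Columbia (Col-0) seedlings of the wild type or of the mutants lba1-1/upf1-1 (upf1-1 below) and upf3-1, was induced for 6 days in every group, and was sampled 0, 3 or 6 days after transfer to shoot-inducing medium. UPF1 and UPF3 are factors of nonsense-mediated mRNA decay, and the series asks which transcripts their mutation affects. The labels give neither the kind of mutation nor the number of independent cultures, so the p-values cover the spread between these samples only, which may be technical. No callus was kept on the callus-inducing medium for comparison, so time and medium cannot be told apart.

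One title conflicts with its own sample. The title of upf1-1 day 0 replicate 1 contains the words wild type, whereas its source name and genotype say upf1-1, and it was kept there. Over the 13286 genes tested, all 27 arrays, this one included, were nearest to another array of their own group. Replicates correlated over these genes with r of 0.993 to 0.998. The UPF3 signal was 9.05 ± 0.047 (SD, n = 3) in the wild type on day 0 and 6.10 ± 0.081 in upf3-1, while no probe set is named for UPF1 here, so the upf1-1 label has no such check. Values are log2 signals after RMA (robust multi-array average), on a scale from 2.04 to 13.48 with a median of 6.57 on every array. In bulk callus, fewer cells that express a gene and less RNA per cell cannot be told apart.

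LBD16 fell about 5-fold within 3 days and hardly moved after that. In the wild type its log2 signals were 9.17, 8.94 and 8.94 at transfer, 6.53, 6.55 and 6.86 after 3 days, and 6.39, 6.49 and 6.21 after 6 days. In upf1-1 they were 8.40, 8.93 and 8.82, then 6.69, 6.85 and 6.45, then 6.40, 6.63 and 6.38. In upf3-1 they were 8.84, 8.66 and 8.78, then 6.20, 6.72 and 6.50, then 6.78, 6.45 and 6.42. The lowest of the 9 day 0 arrays stood at 8.40 and the highest of the 18 later arrays at 6.86, so the days did not overlap. On day 3 the wild type stood at 19.4% of its day 0 level, a log2 change of -2.37 (SE 0.14, limma adjusted p = 9.67e-12). On day 6 the change over day 0 was -2.65 in the wild type, -2.25 in upf1-1 and -2.21 in upf3-1 (SE 0.14 each).

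LBD29, the close relative of LBD16, was dim throughout. On the RMA scale its day 0 mean was higher than the wild type in upf1-1 and lower in upf3-1, the latter without a call (limma adjusted p = 0.315). Its wild type signals were 4.91, 4.24 and 4.92 at transfer, 3.64, 3.65 and 3.83 after 3 days, and 3.52, 3.35 and 3.57 after 6 days. In upf1-1 they were 5.26, 5.37 and 5.49, then 3.60, 3.76 and 3.69, then 3.76, 3.74 and 3.78. In upf3-1 they were 4.12, 4.68 and 4.55, then 3.47, 3.78 and 3.50, then 3.89, 3.92 and 3.58. Each of the 9 day 0 arrays, from 4.12 up, was above each of the 18 later arrays, whose highest value was 3.92. On the later arrays LBD29 stood between the 15.2 and 24.2 percentile of all probe sets, and the deposited table has no detection call, so a level near background cannot be told from a low one. The change to day 3 was -0.98 in the wild type (SE 0.15, limma adjusted p = 1.77e-05), -1.69 in upf1-1 and -0.87 in upf3-1. The change to day 6 was -1.21, -1.62 and -0.66, in the same order.

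PUCHI had the steepest fall of the 4 factors by day 3 in each genotype. Its wild type signals were 8.30, 7.94 and 8.14 at transfer, 4.91, 4.88 and 4.98 after 3 days, and 5.02, 4.45 and 4.75 after 6 days. In upf1-1 they were 7.76, 7.76 and 7.76, then 5.06, 5.08 and 4.72, then 4.71, 4.48 and 4.65. In upf3-1 they were 7.97, 7.67 and 8.04, then 4.67, 4.95 and 4.95, then 4.54, 4.08 and 4.22. A gap from 7.67 to 5.08 separated the day 0 arrays from all later ones. In the wild type PUCHI was 9.21-fold lower on day 3 (log2 change -3.20, SE 0.14, limma adjusted p = 2.80e-14) and 10.4-fold lower on day 6. On day 6 the change over day 0 was -3.15 in upf1-1 and -3.61 in upf3-1.

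BBM fell in 2 steps. Its wild type signals were 8.83, 8.87 and 8.64 at transfer, 6.25, 6.51 and 6.54 after 3 days, and 5.54, 5.71 and 5.68 after 6 days. In upf1-1 they were 8.40, 8.49 and 8.31, then 6.39, 5.92 and 6.46, then 5.24, 5.53 and 5.51. In upf3-1 they were 8.71, 8.71 and 8.74, then 6.84, 6.26 and 6.54, then 5.14, 5.23 and 5.28. Within each genotype, the 3 days formed 3 ranges that did not overlap. The wild type change was -2.35 to day 3 (SE 0.13, limma adjusted p = 2.38e-12) and -3.14 to day 6, when 11.4% of the day 0 level was left.

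**Figure D1:**
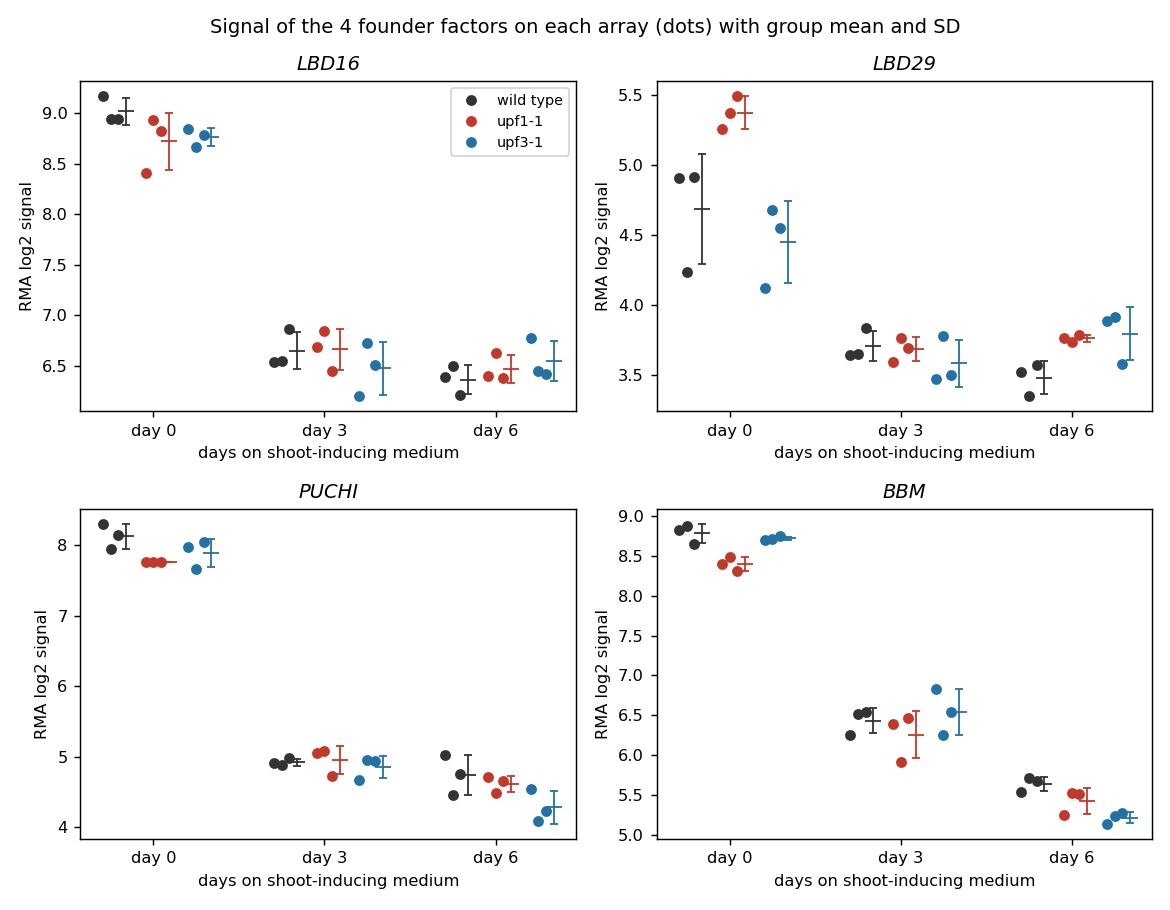
RMA log2 signal (vertical axis) of each factor on every array, by days on shoot-inducing medium, with wild type in black, upf1-1 in red and upf3-1 in blue; dots are arrays, and the bar to the right of each group is its mean with the SD (n = 3). All 9 day 0 arrays lie above all 18 later arrays in each of the 4 panels, and the vertical axes differ and do not start at 0.

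Over the 6 comparisons of a later day with day 0, all 4 factors were called lower in each, at a limma adjusted p under 0.05. In the wild type 15.6% of all genes were called lower on day 3 and 19.2% on day 6. For upf1-1 it was 11.2% (day 3) and 15.7% (day 6), for upf3-1 17.9% and 21.7%. Of the 13286 genes, 885 (6.66%) were called lower in all 6 of these comparisons, the 4 factors among them. In the wild type the median change of the 4 was -2.36 by day 3 and -2.90 by day 6, beside -0.01 and -0.02 over all genes. Ordered from the most negative wild type change on day 3, PUCHI was number 6, LBD16 number 39, BBM number 41 and LBD29 number 238 of all genes. On day 6 PUCHI was number 10, BBM 20, LBD16 37 and LBD29 199. As the 4 factors were chosen with earlier results of these data known, these shares, medians and ranks are given as a description.

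**Figure D2:**
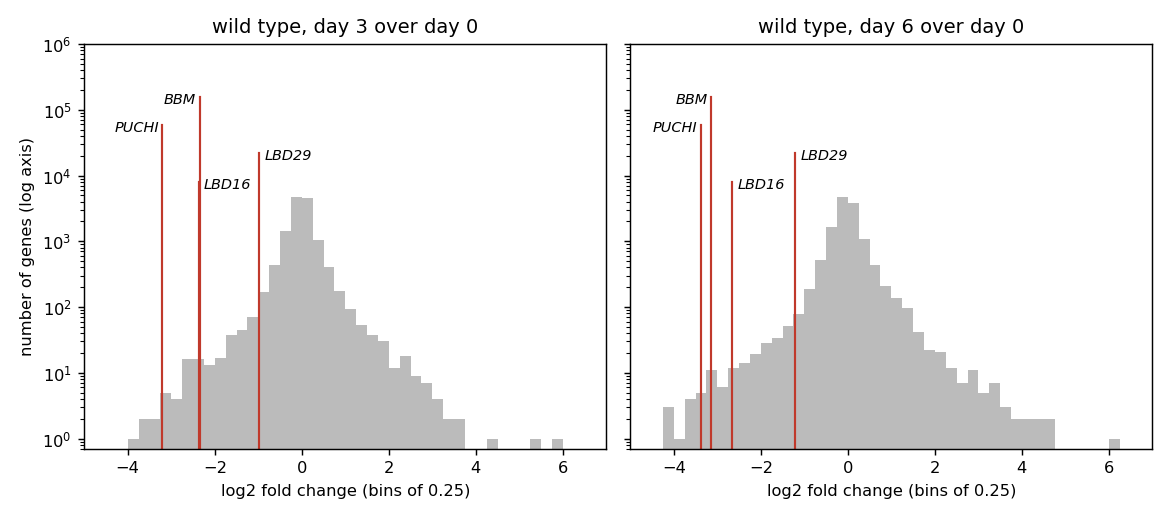
Number of genes (log axis) by log2 fold change in the wild type over 13286 genes, on day 3 (left) and day 6 (right) over day 0, with red lines at the 4 factors. PUCHI lies at -3.20 and -3.38, in the far lower tail, and LBD29 at -0.98 and -1.21 is nearest to the bulk.

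The external controls moved with the same days. Probe sets for poly-A spike-in transcripts, controls meant to be added to RNA before labelling, averaged 6.25 ± 0.26 (SD, n = 3) at transfer of the wild type. On day 6 they averaged 5.52 ± 0.20. Means were also lower on day 6 than on day 0 in upf1-1 (5.44 beside 5.92) and upf3-1 (5.38 beside 6.00). All group means, from 5.38 to 6.25, lay below the array median of 6.57, and whether these signals exceed background was not tested. Centring each array on the spike-ins moves the median change of all genes in the wild type by 0.28 on day 3 and by 0.74 on day 6, to 0.72. On that scale the wild type changes to day 6 were -1.91 for LBD16, -0.47 for LBD29, -2.65 for PUCHI and -2.40 for BBM, all still called. In upf3-1 the day 6 change of LBD29 came to -0.038 there and was not called (limma adjusted p = 0.849). The other 23 of the 24 falls from day 0 stayed called without each array and under each alternative, the filter on dim probe sets not counted, since PUCHI and BBM pass it only through their day 0 groups and LBD29 does not pass.

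Most of each fall was complete by day 3, and the share was lowest for BBM in each genotype. The day 3 change of the wild type amounted to 89.2% of the day 6 change on the log2 scale for LBD16, 81.2% for LBD29, 94.7% for PUCHI and 74.8% for BBM. For BBM this share was 72.1% in upf1-1 and 62.1% in upf3-1. Between days 3 and 6 BBM fell again in all 3 genotypes, by 0.79 in the wild type (limma adjusted p = 0.000497), by 0.83 in upf1-1 (0.00101) and by 1.33 in upf3-1 (5.92e-07), on the log2 scale (SE 0.13 each). PUCHI was the only other factor with a call in this interval, at -0.58 in upf3-1 (SE 0.14, limma adjusted p = 0.00876). That call was lost without upf3-1 day 6 replicate 2 (adjusted p = 0.0702).

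Calls between days 3 and 6 were rarer over all genes. The share called lower was 2.21% in the wild type, with 1 of the 4 factors, 1.25% in upf1-1, also with 1, and 4.09% in upf3-1, with 2. LBD16 stood at -0.29 in the wild type (95% interval -0.58 to 0.012), and LBD29 at -0.23 (-0.54 to 0.08), and both intervals reach past 0. Centred on the spike-ins, the day 6 over day 3 values of BBM were -0.33 in the wild type and -0.49 in upf1-1 and were not called, nor was PUCHI in upf3-1 at -0.30. BBM in upf3-1 stayed called at -1.05.

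**Figure D3:**
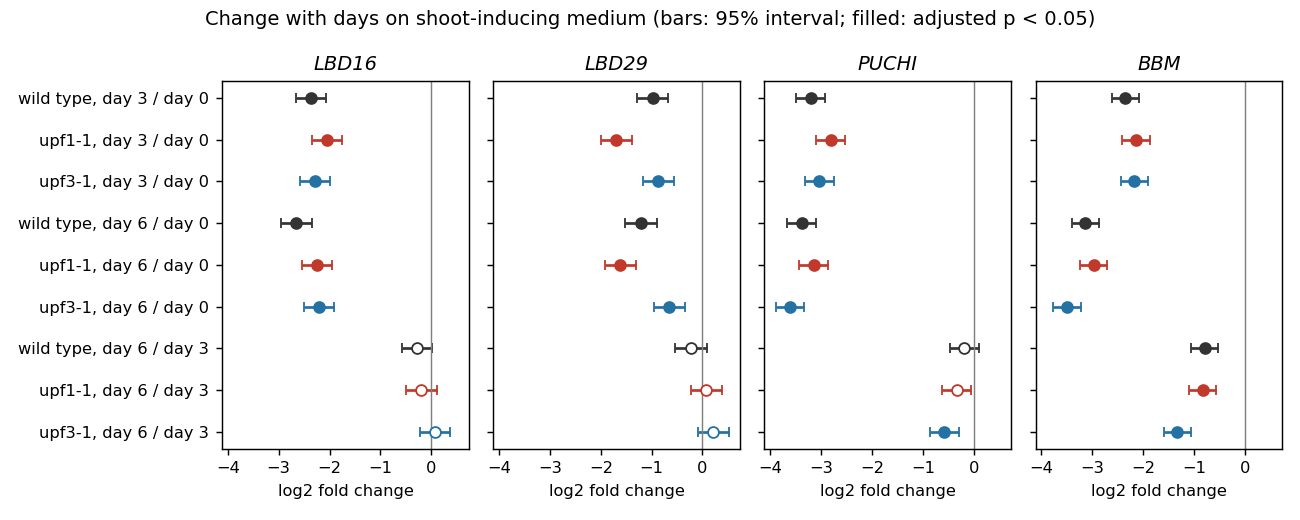
Log2 fold change (horizontal axis) of each factor between days within wild type (black), upf1-1 (red) and upf3-1 (blue); bars are 95% intervals of the limma model, and filled points have an adjusted p under 0.05. The 6 upper rows are filled for all 4 factors, while in the 3 lower rows only BBM is filled throughout.

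LBD29 was the factor that set the mutants apart on day 0. It was 1 of 2 factors called in upf1-1 against the wild type, beside 17.1% of all genes called in either direction. In upf1-1 its 3 arrays (5.26 to 5.49) all lay above the 3 wild type arrays (4.24 to 4.92), a 1.61-fold higher level (log2 0.69, SE 0.15, limma adjusted p = 0.00188). Without wild type day 0 replicate 2, the lowest array, the difference was 0.46 and still called (adjusted p = 0.0225), and without the upf1-1 array whose title conflicts it was 0.75 (0.00404). In upf3-1 LBD29 stood at -0.24 against the wild type, with overlapping arrays (adjusted p = 0.315), but it was called lower when wild type replicate 2 was left out (-0.47, adjusted p = 0.0218). The upf3-1 arrays (4.12 to 4.68) all lay below the upf1-1 arrays, and the difference of -0.93 was called (SE 0.15, limma adjusted p = 0.000561), beside 3.84% of all genes. On the spike-in scale the upf1-1 difference from the wild type was 1.02. That centring moves the upf3-1 comparison with the wild type by 0.26, beside the -0.24 of LBD29. The side on which upf3-1 lay thus depends on the scale.

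On the RMA scale the other 3 factors had lower means in upf1-1 than in the wild type on day 0, by smaller amounts, and BBM alone was called. BBM ran from 8.31 to 8.49 in upf1-1 and from 8.64 to 8.87 in the wild type, without overlap, and differed by -0.38 (SE 0.13, limma adjusted p = 0.0452). That call was lost without any single array except wild type replicate 3 (highest adjusted p = 0.152), and the difference came to -0.048 on the spike-in scale. PUCHI also did not overlap, at -0.36 (SE 0.14, adjusted p = 0.0699), and was called when wild type replicate 2 was left out (0.0473). LBD16 stood at -0.30 with a 95% interval from -0.59 to 0.00 (adjusted p = 0.178). Centring on the spike-ins moves this comparison by 0.33, which is about the size of the PUCHI and LBD16 differences too. In upf3-1 none of the 4 was called against the wild type on day 0 by limma (0 at an unadjusted p under 0.05; 15.3% of all genes were called), with values from -0.25 for LBD16 to -0.06 for BBM.

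On day 3 no factor differed from the wild type in either mutant at the threshold (0 at an unadjusted p under 0.05 by limma), beside 17.2% of all genes called in upf1-1 and 22.5% in upf3-1. The values ran from -0.18 (BBM) to 0.03 (PUCHI) in upf1-1 and from -0.17 (LBD16) to 0.11 (BBM) in upf3-1. LBD29 had the widest 95% intervals, in upf3-1 from -0.43 to 0.18. On day 6 upf1-1 again had no call by limma (0 at an unadjusted p under 0.05; 17.7% of all genes were called), with LBD29 at 0.28 and BBM at -0.21.

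In upf3-1 on day 6, PUCHI and BBM were lower than in the wild type. These are 2 of the 4 factors, beside 8.57% of all genes called lower and 9.82% called higher. PUCHI ran from 4.08 to 4.54, beside 4.45 to 5.02 in the wild type, and differed by -0.46 (SE 0.14, limma adjusted p = 0.0191). BBM ran from 5.14 to 5.28 beside 5.54 to 5.71, without overlap, and differed by -0.43 (SE 0.13, adjusted p = 0.0234). Each call was lost without 4 of the 6 arrays, with a highest adjusted p of 0.150 for PUCHI, without wild type day 6 replicate 1, and 0.0857 for BBM, without upf3-1 day 6 replicate 1. Neither was called with arrays centred on 7 reference genes (0.0519 and 0.0671) or on the spike-ins (-0.33 and -0.29), and PUCHI was not called when only these groups were fitted (0.0853). LBD29 stood the other way, at 0.31 (adjusted p = 0.160). Between the mutants no factor was called on day 3 or day 6 (limma; 1 at an unadjusted p under 0.05 on each day, BBM and then PUCHI), beside 7.93% and 2.24% of all genes. BBM was called higher in upf3-1 than in upf1-1 on day 3 when upf3-1 day 3 replicate 2 was left out (0.43, adjusted p = 0.0379).

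**Figure D4:**
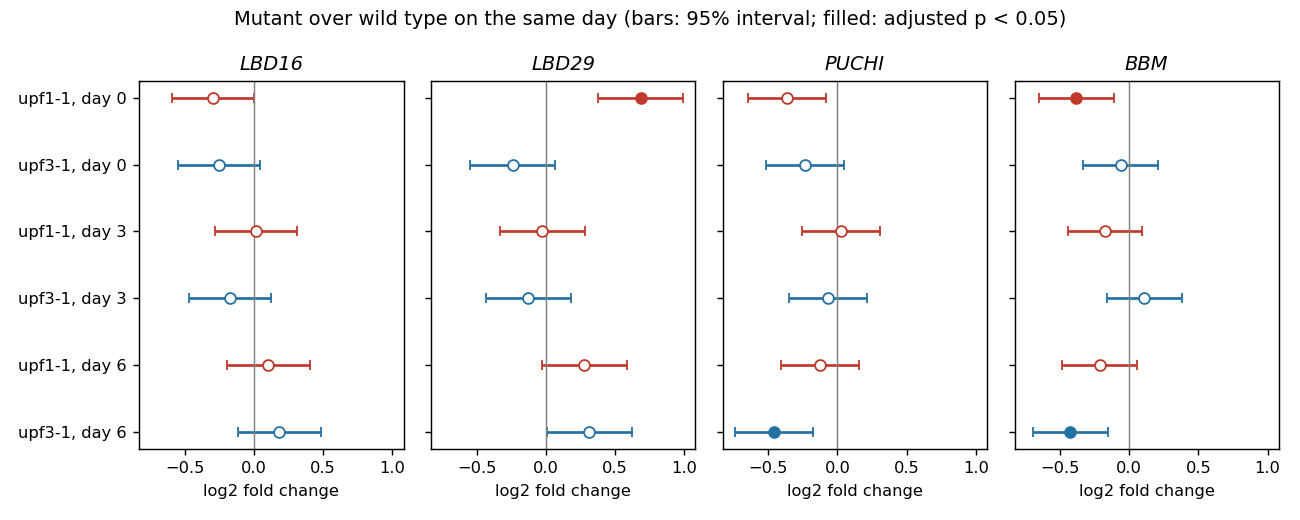
Log2 fold change (horizontal axis) of upf1-1 (red) and upf3-1 (blue) over the wild type of the same day for each factor; bars are 95% intervals of the limma model and filled points have an adjusted p under 0.05. LBD29 in upf1-1 on day 0 is the only filled point above 0, and BBM (day 0 in upf1-1, day 6 in upf3-1) and PUCHI (day 6 in upf3-1) are the filled points below 0.

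Whether the falls themselves differed between genotypes was tested directly. Against the wild type, none of the 4 factors differed in its change to day 3 or day 6 in either mutant (limma; at an unadjusted p under 0.05, 1 for upf1-1 to day 3, 0 to day 6, 0 for upf3-1 to day 3 and 2 to day 6). Over all genes 0.241% and 0.452% were called for upf1-1 and 0.662% and 0.361% for upf3-1. The largest value was LBD29 in upf1-1 to day 3, with a difference of -0.71, a greater fall (95% interval -1.15 to -0.28, adjusted p = 0.203). LBD29 in upf3-1 to day 6 stood at 0.55 (0.12 to 0.99, adjusted p = 0.277), and passed when replicate 2 of the wild type at transfer was left out (0.78, adjusted p = 0.0436).

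Compared with each other, the mutants differed in how far LBD29 fell. The fall was smaller in upf3-1 than in upf1-1 by 0.83 to day 3 (SE 0.21, limma adjusted p = 0.0496) and by 0.96 to day 6 (SE 0.21, adjusted p = 0.0252), in a contrast that was added after the other results were seen. Over all genes 1.40% and 0.738% were called in these contrasts. LBD29 levels of the mutants overlapped on days 3 and 6, and the day 0 arrays did not. Both contrasts contain the day 0 difference of upf3-1 from upf1-1 (-0.93), beside -0.10 on day 3 and 0.03 on day 6. They are therefore not separate from the day 0 result. Leaving out single arrays ended the call to day 3 in 11 of 12 cases (adjusted p up to 0.119) and the call to day 6 in 7 of 12 (up to 0.0846). BBM and PUCHI stood at -0.53 and -0.46 in the change to day 6 and were not called (adjusted p = 0.188 and 0.278).

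Ordered by group mean, each factor had the 3 day 0 groups on top, with no overlap between the lowest of them and the next group. For LBD16 the order on day 0 was wild type (9.02), upf3-1 (8.76) and upf1-1 (8.72), and only the wild type lay clear of its neighbour. For LBD29 it was upf1-1 (5.38), wild type (4.69) and upf3-1 (4.45), with upf1-1 clear. The PUCHI means were 8.13 in the wild type, 7.89 in upf3-1 and 7.76 in upf1-1, and neighbours overlapped. The BBM means were 8.78, 8.72 and 8.40 in the same order, with upf1-1 clear of upf3-1. Among the 6 later groups each neighbour overlapped the next for LBD16, LBD29 and PUCHI, while for BBM the day 3 groups (6.26 to 6.54) stood clear of the wild type on day 6 (5.64), which stood clear of upf1-1 (5.43).

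The 9 group means of the factors ran together, with Pearson r from 0.83 (LBD29 and BBM) to 0.99 (LBD16 and PUCHI). These points share the step from day 0 to later days, which sets most of the r. After the group means were subtracted, the 27 arrays gave r of 0.42 for LBD16 and PUCHI and 0.27 for LBD29 with each of these. BBM stood at -0.35 with LBD16, -0.34 with LBD29 and -0.47 with PUCHI. The values of a pair come from the same arrays and are given as a description.

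Among 914 genes whose group means had an SD of at least 0.5, the genes most like each factor over the 9 group means were listed, 3 per factor. ASPGB1, an asparaginase gene, was among them for both LBD16 (r = 0.997) and PUCHI (r = 0.998), and fell by 3.12 to day 3 in the wild type on the log2 scale. LBD16 was also followed by AT1G75640 and AT4G09940 (r = 0.996 and 0.995), and PUCHI by AT2G46850 and AT1G53860 (0.998 and 0.995). For BBM these were AT1G74490, AT1G34110 and AT3G63240 (0.998, 0.996 and 0.995). The genes most like LBD29 were AT1G62760, AT5G14650 and AT4G22470 (r = 0.997, 0.984 and 0.961). These genes shared its order on day 0, with group means of 8.42, 9.31 and 6.45 in upf1-1, 7.06, 7.81 and 5.56 in the wild type and 6.29, 6.96 and 4.17 in upf3-1. As they were picked for likeness, these values carry no test.

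**Figure D5:**
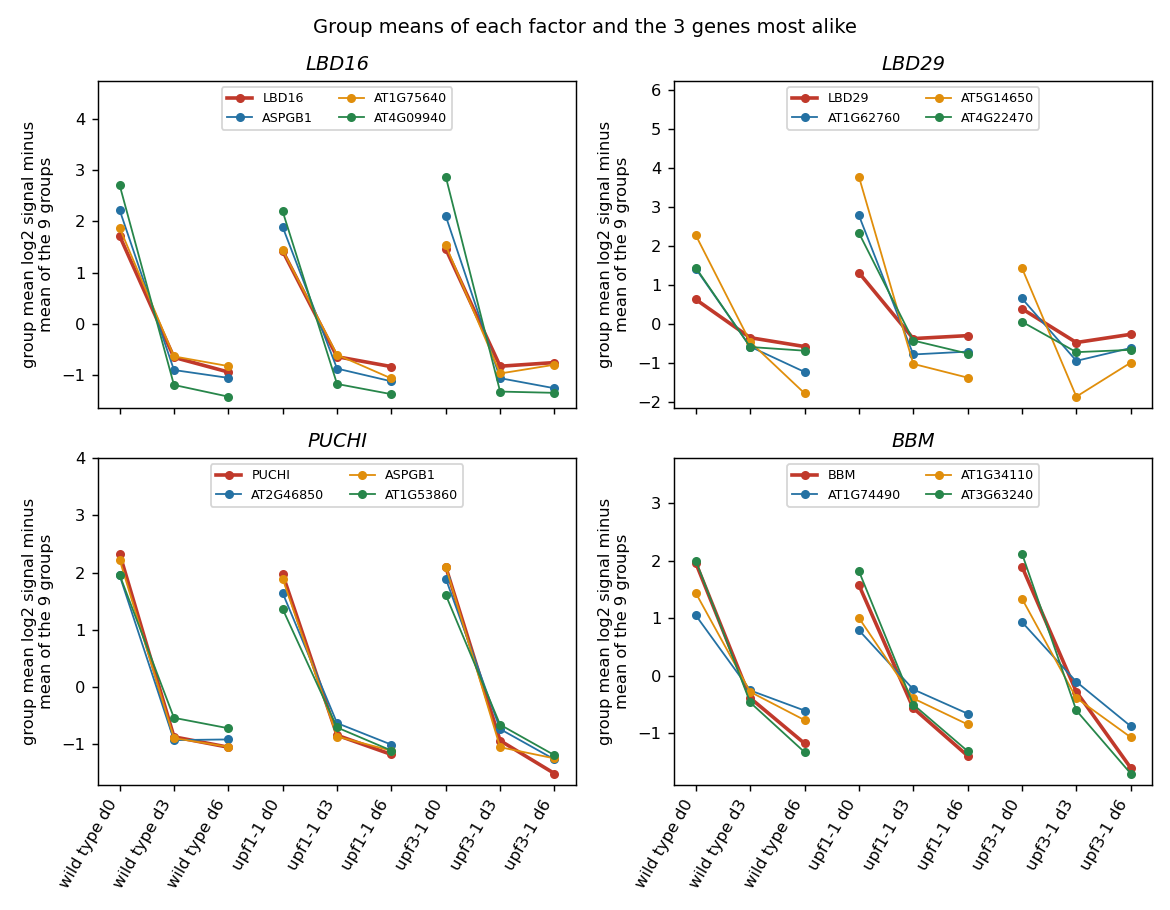
Group mean of the log2 signal minus the mean of all 9 groups (vertical axis) for each factor (thick red line) and the 3 genes most like it, over days 0, 3 and 6 (d0, d3, d6) of each genotype. In the LBD29 panel the day 0 peak is highest in upf1-1 and lowest in upf3-1 for all 4 genes, and in the other panels the day 0 peak of the factor itself is highest in the wild type.

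Few other genes of the pathway were found among the probe sets with 1 symbol, and only these are counted as measured. The 8794 probe sets without a symbol and the 503 with several were not searched, so genes not counted may still have signals. Of 19 genes of auxin signalling upstream of the LBD genes, 1 was measured, the Aux/IAA repressor gene IAA18. IAA18 rose in the wild type by 0.79 to day 3 and 0.70 to day 6 (SE 0.12, limma adjusted p = 2.77e-05 and 8.71e-05), opposite to the LBD genes, and on days 3 and 6 it was lower than the wild type in upf1-1 (-0.81 and -0.77) and in upf3-1 (-0.58 and -0.81). Of 26 root meristem and primordium genes 1 was measured, LHW, a bHLH factor of root vascular tissue. LHW was higher than the wild type in both mutants on each day, by 0.35 to 0.46, and in the wild type it was lower on day 6 (-0.29, adjusted p = 0.0306), a value that turned to 0.45 on the spike-in scale.

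Of 19 AP2/ERF genes of meristems, callus and wounding 1 was measured, LEP (LEAFY PETIOLE), an ERF factor of leaf development. LEP was called lower in upf1-1 on day 3 over day 0 (-0.52, limma adjusted p = 0.0390) and higher in upf3-1 than in the wild type on day 0 (0.61, adjusted p = 0.0229). It was not called in the wild type on day 3 or day 6. Of 11 LBD partners and targets 1 was measured, AT2G31370, the bZIP59 partner of LBD16, which was not called in any comparison of days with day 0 or of mutants with wild type (1 of 12 at an unadjusted p under 0.05, upf1-1 on day 6 over day 0, at 0.18). None of 20 LBD relatives, 12 genes of very long chain fatty acid elongation or 10 embryo identity genes was measured.

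To show auxin output more widely, 12 Aux/IAA and GH3 genes were added after the annotation was read. They are the genes whose symbol is IAA or GH3 with a number, or WES1. Family members under other symbols were not sought. GH3 enzymes conjugate auxin to amino acids, and both families contain early auxin response genes. In the wild type 6 of 12 were called lower and 3 higher on day 3, and the same counts were found on day 6, beside 15.6% lower and 12.9% higher among all genes on day 3 and 19.2% lower and 14.4% higher on day 6. IAA20 fell by 2.58 and 2.44, GH3.1 by 1.94 and 1.83, WES1 by 0.99 and 1.43 and IAA30 by 0.97 and 0.99 on the log2 scale on days 3 and 6. IAA18, IAA31 and GH3.9 rose on both days. On day 6 the called falls of GH3.3 (-0.72) and IAA29 (-0.61) turned to 0.021 and 0.12 on the spike-in scale, while the genes named before kept their direction. The median change of the 12 was -0.39 on day 3 and -0.43 on day 6, beside -0.01 and -0.02 over all genes, and on the spike-in scale it came to -0.11 and turned to 0.31. Against the wild type on day 0, 1 of the 12 was lower in upf1-1, GH3.17 at -0.68, and none was higher, beside 7.84% of all genes called lower. GH3.17 was also the 1 lower gene in upf3-1 on day 0, at -0.59, beside 6.90%.

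Markers of other cell types moved in the same arrays. Of 7 root hair markers 2 were measured, EXPA7 and EXPA18, and both rose in all 3 genotypes, in the wild type by 3.53 and 3.24 to day 6 on the log2 scale. Their summed linear signal ran from 34.5 to 40.5 in the wild type on day 0 and from 325 to 520 on day 6, and on day 0 it was 38.3 to 50.3 in upf1-1 and 66.7 to 78.6 in upf3-1. Of 9 leaf mesophyll markers 5 were measured, and all 5 were called higher in each mutant on days 0 and 3 and 4 on day 6. Of all genes, 9.27%, 9.86% and 10.5% were called higher in upf1-1 on days 0, 3 and 6, and 8.41%, 10.9% and 9.82% in upf3-1. With days in the wild type, 4 of the 5 rose to day 6, the photosynthesis genes PRK (1.41), SBPASE (1.06), RCA (0.93) and LHCB4.1 (0.77). The remaining marker, LHCB4.2, had wild type means of 5.76, 5.07 and 5.83 on days 0, 3 and 6. LHCB4.1 also had a lower mean on day 3 (7.94) than on day 0 (8.16), while PRK, SBPASE and RCA had higher ones. The summed linear signal of all 5 was 621 to 788 in the wild type, 1330 to 1397 in upf1-1 and 1028 to 1176 in upf3-1 on day 0. In the wild type on day 6 it was 1103 to 1399. The part of these cells in the values of the 4 factors was not tested.

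Of 7 shoot meristem markers 3 were measured, PHV, LAS and CLV3. PHV, an HD-ZIP III factor of the upper leaf side and the meristem, was called higher on day 6 over day 0 in the wild type (0.27) and upf1-1 (0.30), and lower in upf3-1 than in the wild type on day 3 (-0.30, which turned to 0.014 on the spike-in scale) and day 6 (-0.37). LAS, a GRAS factor of axillary meristems, was called lower on day 6 over day 0 in the wild type (-0.44), upf1-1 (-0.33) and upf3-1 (-0.45), values that turned to 0.30, 0.15 and 0.16 on the spike-in scale. LAS was also called lower in upf3-1 on day 3 (-0.44, and -0.10 on that scale). CLV3, which defines stem cells of the shoot meristem, had group means between 3.23 and 3.63 and no call between days or against the wild type. The 3 of 6 stomatal lineage markers measured were dim and summed to 23.1 to 30.3 on all arrays, and none was called, FMA at -0.19 and MUTE at 0.14 on day 6 over day 0 of the wild type. Of the 7 reference genes, 1 was called lower there, AT5G15710 at -0.21, which turned to 0.52 on the spike-in scale. None of the 5 pericycle, 7 xylem or 4 phloem markers was found among the probe sets with 1 symbol. The tissue in which a lateral root starts was therefore not checked. The 3′ minus 5′ signal of the control transcripts, which rises as RNA degrades, had group means from 1.66 to 1.83. On day 0 it was 1.79 in the wild type, 1.70 in upf1-1 and 1.72 in upf3-1.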

How the data were processed

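The authors deposited 1 log2 signal for every probe set and array, computed with RMA, per the submitters' processing notes. RMA gives all arrays the same distribution, which hides any change common to most transcripts. A second deposited table held the same log2 values (0 differed). Of 22810 probe sets, 13513 have 1 gene symbol, 503 several and 8794 none here. Of the 13513, 13436 matched a RefSeq locus (TAIR10.1, used for names only). The brightest probe set stood for a gene, which left 13286 genes, and each of the 4 factors has 1.

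With limma 3.58.1 in R 4.3.3, lmFit and eBayes were run on the 27 arrays together, each group having its own mean. The two-sided p-values were adjusted by Benjamini-Hochberg over all genes of each of 24 contrasts, and a gene was called at an adjusted p under 0.05. The procedure was tested on simulated data. Tables and figures were made with Python 3.11.15, pandas 2.3.3 and matplotlib 3.10.9.

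The members and gene lists were chosen with earlier results of these data known. The 4 factors were named with all their arrays. From a list, the called members with the largest wild type change on day 6 were named (at most 4; with no call, the 2 of smallest p), and for likeness the 3 genes with the highest r. Other list members were named after their values were seen, to identify counts of 5 or fewer or calls that turned, and CLV3 as a defining marker. Alternatives were a replicate block, a fit of only the groups compared, centring on spike-ins or reference genes, a filter on dim probe sets, all probe sets, a trended robust eBayes and leaving out each array. The number of arrays limits the precision.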

Additional observations from a re-analysis of the deposited data

Results flagged for a closer look

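LBD29 was singled out because its change with days differed between the mutants in a direct test. The fall was smaller in upf3-1 than in upf1-1 by 0.83 to day 3 (limma adjusted p = 0.0496) and by 0.96 to day 6 (adjusted p = 0.0252). On day 0 all 3 upf1-1 arrays (5.26 to 5.49) stood above all 3 upf3-1 arrays (4.12 to 4.68), while on days 3 and 6 the mutants overlapped. The test contains this day 0 difference (-0.93 for upf3-1 over upf1-1) and is not separate from it. This contrast was chosen after the other results were seen, the signals lie low on the scale, and both calls depended on most single arrays. Groups of 3 were not tested for outlying arrays.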

How the results depend on the processing

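The falls from day 0 of LBD16, PUCHI and BBM stayed called in each genotype under all alternatives other than the filter on dim probe sets, as did those of LBD29 except 1. That filter is left out here, since PUCHI and BBM pass it only through day 0 and LBD29 does not pass. Small calls on 3 arrays a group depended more on the choices. On the poly-A spike-in scale, LBD29 in upf3-1 on day 6 over day 0 came to -0.038, BBM on day 6 over day 3 to -0.33 in the wild type and -0.49 in upf1-1, PUCHI in upf3-1 to -0.30, BBM in upf1-1 over wild type on day 0 to -0.048, and PUCHI and BBM in upf3-1 over wild type on day 6 to -0.33 and -0.29, and none was called. With arrays centred on reference genes, BBM in upf1-1 on day 0 (-0.35) and PUCHI and BBM in upf3-1 on day 6 (-0.40 and -0.36) were not called. When only the groups compared were fitted, the calls of PUCHI in upf3-1, on day 6 over day 3 (-0.58, adjusted p = 0.0503) and over wild type on day 6 (-0.46, 0.0853), and of LBD29 between the mutants to day 3 (0.83, 0.0536) were lost, while PUCHI in upf1-1 on day 0 (-0.36) became called (0.0310). The cause was not tested.

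Replicate numbers did not pair the arrays: deviations of same-numbered arrays correlated with r from -0.29 to 0.27, and 23 of 108 pairs were over 0.1. With a replicate block, BBM in upf1-1 on day 0 (-0.38, adjusted p = 0.0572) and LBD29 between the mutants to day 3 (0.83, 0.0616) were not called.

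Leaving out single arrays gave -0.46 to -0.28 for PUCHI and -0.45 to -0.34 for BBM in upf1-1 on day 0, -0.47 to -0.075 for LBD29 in upf3-1 on day 0, -0.61 to -0.32 for PUCHI and -0.48 to -0.39 for BBM in upf3-1 on day 6, and -0.70 to -0.48 for PUCHI in upf3-1 on day 6 over day 3. It gave 0.12 to 0.43 for BBM between the mutants on day 3, 0.39 to 0.78 for LBD29 in the change of upf3-1 against wild type to day 6, and 0.66 to 0.94 and 0.80 to 1.08 for LBD29 between the mutants to days 3 and 6. Values that were not called changed sign 21 times on the spike-in scale and 28 times without 1 array, and stayed uncalled between -0.12 and 0.28.

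The number of genes called over all genes moved by over 1.5 times in all 24 comparisons when all probe sets were tested (1.78 to 3.25 times, with more features), in 14 on the spike-in scale (0.164 to 14.0 times), in 9 with a fit of the compared groups alone, in 2 without dim probe sets and in 51 of 180 fits without 1 array. On day 6 over day 0 of the wild type 4469 genes were called, 42.8% of them higher, and 12052 with 98.1% higher on the spike-in scale. The share of calls that were higher in upf1-1 on day 6 was 59.1%, and 72.6% with reference gene centring.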
